A study of Drosophila melanogaster with 9 samples.

Results

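Non-stop mutant embryos were compared with OregonR embryos of Drosophila melanogaster at stage 5, the cellular blastoderm. The comparison rests on 6 of the 9 RNA-seq libraries of the series, chosen by their labels: 3 libraries of the genotype labelled nonstop and 3 libraries of the genotype labelled oreR, the wild-type strain OregonR. In both groups the flies were kept at 25 °C, the eggs were laid over 2 h and aged for 1 h, stage 5 embryos were sorted by hand, and polyadenylated RNA was sequenced as stranded libraries. The alleles, the genotype of the mothers and the number of embryos per library are not given in the sources used here. The non-stop libraries belonged to experiment 1190 and the OregonR libraries to experiment 1013, and no wild type from the same experiment as non-stop was analysed here. Genotype and experiment therefore cannot be told apart in any value below.

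The gene non-stop (not) encodes the ubiquitin protease of the SAGA co-activator, which works with the subunits Sgf11, e(y)2 and Ataxin-7 to remove ubiquitin from histone H2B. Stage 5 is the time of the maternal-to-zygotic transition in the fly: RNAs that the mother loaded into the egg are degraded, and the embryo begins to transcribe its own genome at high rate. The zygotic genes of this stage set up the segments and the dorsoventral fates and build the membranes that enclose each nucleus, while the maternal RNAs carry the axis determinants, the germ plasm and most of the machinery of the rapid nuclear cycles. Since RNA was taken from whole embryos, fewer cells of a type and less RNA per cell cannot be told apart, and because poly(A) RNA was selected, loss of an RNA and loss of its poly(A) tail cannot be told apart either.

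Values are RPKM, reads per kilobase of gene scaled to the library size. The non-stop libraries held 36.9 to 39.3 M reads in genes and the OregonR libraries held 76.5 to 90.1 M reads, so that 3 reads in a gene of 1 kb were worth 0.0730 to 0.0767 RPKM in non-stop and 0.0348 to 0.0402 RPKM in OregonR. Pearson's r between libraries, over log2(RPKM + 1) of the tested genes, was 0.983 to 0.997 within a genotype and 0.773 to 0.865 between genotypes. Genes with at least 1 RPKM in at least 3 of the 6 libraries were tested with limma on log2(RPKM + 1), and a gene was called at a Benjamini-Hochberg adjusted p under 0.05. Of 7280 tested genes 6024 were called (82.7%). Of all tested genes 47.7% were called higher in non-stop and 35.1% were called lower, and 21.4% (1555 genes) were called and at least 2-fold higher while 12.4% (906 genes) were called and at least 2-fold lower. In 85.5% of the tested genes the 3 non-stop values did not overlap the 3 OregonR values. Larger changes were more often losses: 160 genes fell at least 8-fold and 44 rose at least 8-fold. The counts of each gene class below are to be read against these shares.

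The share of calls in each direction depended on the scaling. With RPKM as deposited 57.6% of the calls were higher in non-stop, and the log2 fold changes of all 7280 genes had a median of 0.17. The median was 0.05 with quantile normalization (52.1% of calls higher) and -0.0033 with median-of-ratios scaling (49.1%). Values centred within bins of gene length gave a median of -0.14 (43.2%). A class whose median lies within about this range of 0 has no settled direction. Some classes with medians further from 0 also changed sign with the scaling. The median of cytoplasmic ribosomal proteins was -0.58 as deposited and 0.05 with quantile normalization. That of cohesin and condensin was 0.27 as deposited and -0.35 with centring by length.

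The targeted gene was low in all 3 libraries labelled non-stop. The gene not (chromosome arm 3L) had 0.608, 0.662 and 1.11 RPKM in non-stop, against 52.3, 53.5 and 56.7 RPKM in OregonR. The log2 fold change was -4.95 (SE 0.12, adjusted p = 9.32e-07). A tRNA gene lies within its span. Of the other subunits of the deubiquitinase module, e(y)2, which is shared with an mRNA export complex, had 30.3, 30.1 and 30.96 RPKM in non-stop and 47.8, 55.8 and 52.3 RPKM in OregonR, a log2 fold change of -0.75 (SE 0.07, adjusted p = 4.02e-05). Sgf11 had 51.6, 52.9 and 50.1 RPKM in non-stop and 45.4, 52.5 and 51.4 RPKM in OregonR and was not called (adjusted p = 0.483). Atxn7, the anchor of the module, had 19.02, 18.1 and 18.97 RPKM in non-stop and 17.98, 19.1 and 19.8 RPKM in OregonR and was not called either (adjusted p = 0.822). The ranges of these last 2 genes overlapped between the genotypes. Their calls rested on the scaling: Atxn7 was called lower at -0.36 with quantile normalization, at -0.21 with median-of-ratios scaling and at -0.64 with centring by length, Sgf11 was called lower at -0.15 after median-of-ratios scaling, and e(y)2 was not called at -0.19 after centring by length.

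Most tested zygotic patterning genes were lower in non-stop. Of 107 matched genes of the patterning lists (gap, pair-rule, segment polarity, Hox, mesoderm, dorsal ectoderm, neuroectoderm, Bearded and Enhancer of split, cellularization, sex determination and apoptosis) 76 were tested, and 69 of them were called lower and 5 higher. At least 2-fold losses were called for 67 of the 76 and at least 2-fold gains for 3 (cnc, fog and the apoptosis gene hid). The median log2 fold change was -2.95, beside 0.17 over all tested genes. All 25 genes of the early zygotic marker list were called and at least 2-fold lower, with a median of -3.71. Their mean level was 3.09 ± 0.24 in non-stop and 6.68 ± 0.13 in OregonR on the log2(RPKM + 1) scale (SD, n = 3 each). A gene that is low in one genotype could pass the filter only through the other and then had to differ, so the counts of lists with many untested members describe those that passed and no more.

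**Figure D1:**
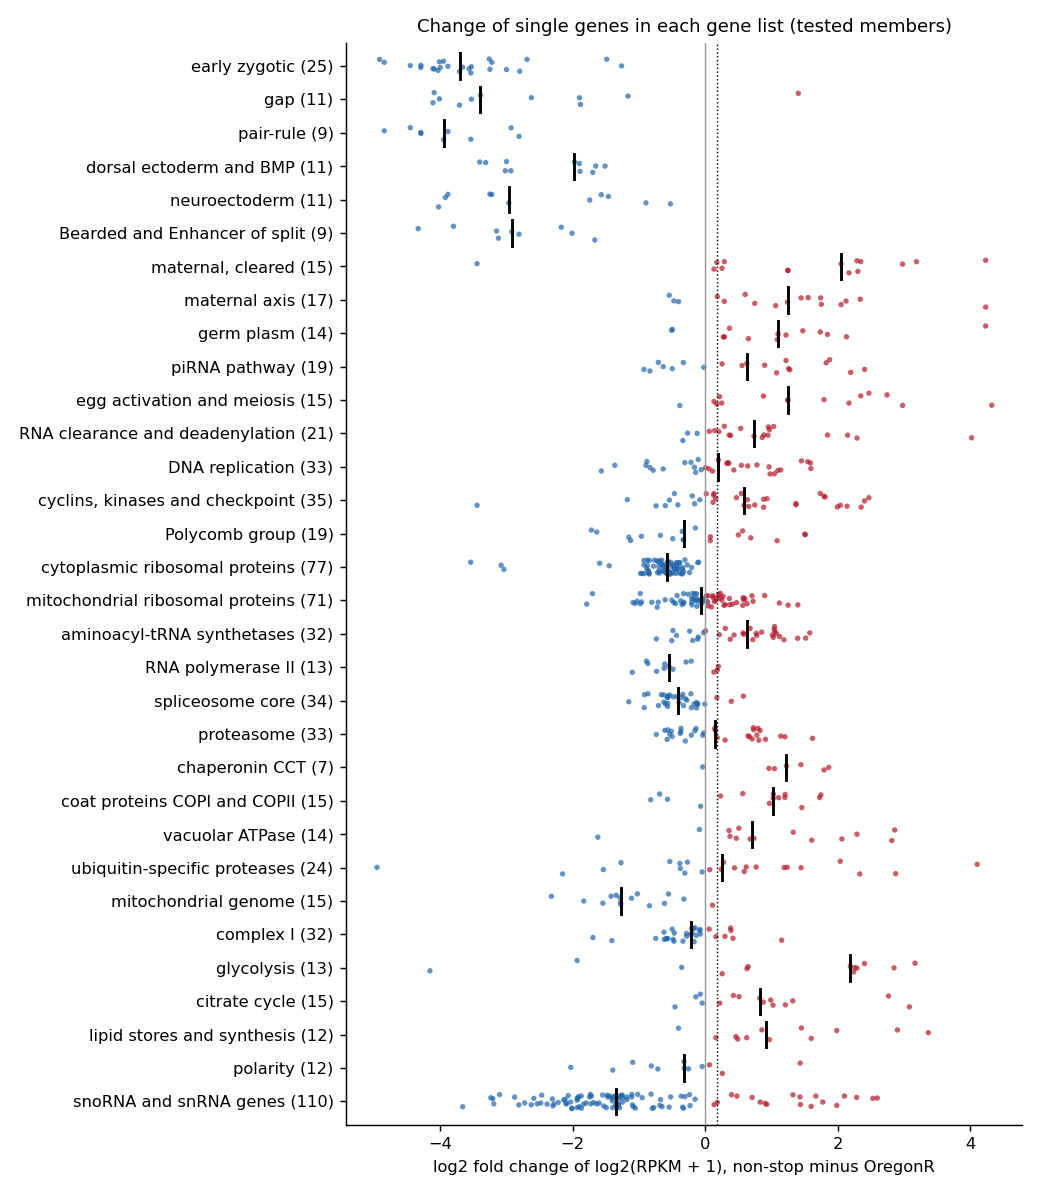
Log2 fold change, non-stop minus OregonR, of the tested members of 32 gene lists, 1 point per gene (red above 0, blue below), with the median of each list as a black bar and the number of tested members in brackets. The dotted line is the median of all tested genes, 0.17. The zygotic lists at the top lie to the left with medians down to -3.95 (pair-rule), and the lists of maternal RNAs below them lie to the right with medians up to 2.05.

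The pair-rule genes, which divide the embryo into segment units, were all called and at least 2-fold lower, 9 of 9, with a median of -3.95. The transcription factor gene odd had 0.780, 1.37 and 3.52 RPKM in non-stop, against 79.5, 84.6 and 64.4 RPKM in OregonR (log2 fold change -4.84, SE 0.32, adjusted p = 1.27e-05). The homeobox gene prd had 0.583, 1.53 and 3.004 RPKM in non-stop, against 62.4, 68.3 and 37.2 RPKM in OregonR, and ftz had 2.56, 4.46 and 8.96 RPKM in non-stop, against 116, 142 and 86.5 RPKM in OregonR. In each of the 3 genes the highest non-stop library lay far under the lowest OregonR library, and non-stop replicate 1 was the lowest of the 6.

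Of the gap genes, the first zygotic transcription factors of the anterior-posterior axis, 10 of 11 were called lower, all of them at least 2-fold. The genes kni (1.98, 3.28 and 2.82 RPKM in non-stop, against 59.8, 67.6 and 59.1 in OregonR) and gt (6.03, 7.24 and 6.74 RPKM in non-stop, against 125, 141 and 123.2 in OregonR) had log2 fold changes of -4.11 and -4.09. Kr had 2.65, 3.58 and 3.24 RPKM in non-stop and 68.1, 68.7 and 60.7 RPKM in OregonR, with a log2 fold change of -4.01 (SE 0.10, adjusted p = 1.22e-06). The spread of these 3 genes among the replicates was small beside the difference. The change of hb was smaller, and this gene also has a maternal RNA: hb had 29.4, 28.004 and 25.4 RPKM in non-stop and 57.3, 66.9 and 65.2 RPKM in OregonR (log2 fold change -1.17). The exception in this list was cnc, a head gene that encodes a bZIP factor and that overlaps fzo in the annotation. The gene cnc rose, with 6.21, 5.43 and 5.01 RPKM in non-stop and 1.39, 1.398 and 1.62 RPKM in OregonR.

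Along the dorsoventral axis losses were called in the lists of the mesoderm, the neuroectoderm and the dorsal ectoderm. In the mesoderm list 7 of 10 tested genes were called lower, 6 of them at least 2-fold. The mesoderm determinant twi had 3.63, 7.41 and 6.78 RPKM in non-stop, against 111, 127 and 92.5 RPKM in OregonR, and its partner sna had 5.58, 7.69 and 8.71 RPKM in non-stop, against 133, 160.1 and 104 RPKM in OregonR. Other genes overlap twi in the annotation. The list's exceptions were fog, whose secreted product triggers apical constriction and which rose by 1.17, and zfh1 and Mef2, called higher by less than 2-fold (0.35 and 0.82 on the log2 scale). In the neuroectoderm 9 of 11 tested genes were called and at least 2-fold lower, led by the Sox genes SoxN (0.734, 1.44 and 2.79 RPKM in non-stop, against 47.9, 48.6 and 27.5 in OregonR) and D (6.45, 8.15 and 7.35 RPKM in non-stop, against 120.3, 135 and 119 in OregonR). In both Sox genes the highest non-stop value lay far under the lowest OregonR value. The repressor gene brk, which keeps BMP targets off in this region, had 1.24, 1.88 and 1.88 RPKM in non-stop and 40.5, 44.9 and 30.4 RPKM in OregonR. In the dorsal ectoderm 11 of 11 tested genes of 16 were called and at least 2-fold lower. The protease gene tld, whose product frees the BMP ligands, had 5.65, 6.303 and 4.47 RPKM in non-stop, against 66.7, 56.9 and 65.6 RPKM in OregonR (log2 fold change -3.31). The ligand gene dpp also fell, from a low level, with 0.0937, 0.142 and 0.119 RPKM in non-stop, against 2.21, 2.42 and 1.96 RPKM in OregonR.

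**Figure D2:**
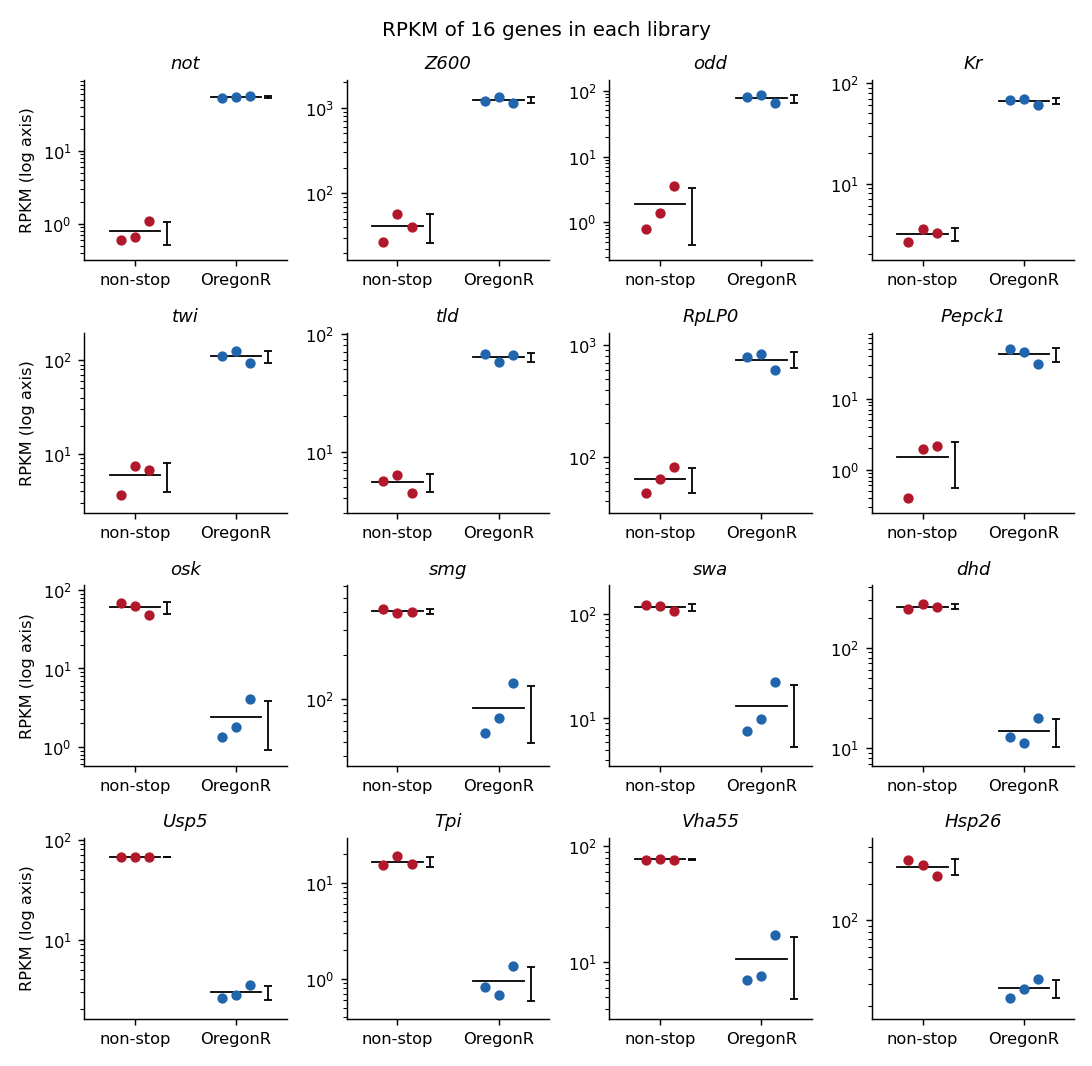
RPKM (log axes) of 16 genes in each of the 3 non-stop and 3 OregonR libraries, with the mean as a black line and the SD as the bar beside it (n = 3). In the upper 8 panels, from not to Pepck1, every non-stop value lies under every OregonR value, and in the lower 8, from osk to Hsp26, every non-stop value lies above every OregonR value.

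The Bearded genes, whose small proteins block the ubiquitin ligase Neuralized, and the Enhancer of split genes, targets of Notch, were lower in 9 of 9 tested members of 15 matched. Tom had 7.08, 13.5 and 25.8 RPKM in non-stop, against 369, 343 and 200.1 RPKM in OregonR, and Brd had 8.79, 7.88 and 17.1 RPKM in non-stop, against 117, 128 and 71.7 RPKM in OregonR. OregonR replicate 3 was the lowest OregonR library for both genes and still lay above every non-stop library. The zygotic genes of cellularization were lower in 6 of 6 members. Z600, an inhibitor of mitosis in cycle 14, had 26.98, 57.5 and 40.01 RPKM in non-stop, against 1208, 1336 and 1138 RPKM in OregonR (log2 fold change -4.91, SE 0.24, adjusted p = 4.76e-06). The genes gdl and gdl-ORF39 overlap it. Sry-alpha had 42.8, 61.7 and 44.6 RPKM in non-stop and 655, 619.7 and 620.3 RPKM in OregonR, and halo had 84.7, 111 and 77.6 RPKM in non-stop and 1031, 1074 and 1127 RPKM in OregonR. The smallest change in this group was that of nullo, with 27.6, 24.4 and 27.1 RPKM in non-stop and 43.98, 65.3 and 93.3 RPKM in OregonR (log2 fold change -1.26). Of all the early zygotic markers, nullo and sisA (-1.49) changed least, and all others fell by at least 2.69 on the log2 scale.

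None of the 8 Hox genes passed the filter, with RPKM computed over their long gene spans with introns. The highest value of any of them was 0.137 RPKM in non-stop, against 2.17 RPKM in OregonR, both for Dfd. Their mean level was 0.0221 ± 0.0201 in non-stop and 0.335 ± 0.112 in OregonR on the log2(RPKM + 1) scale (SD, n = 3 each). In segment polarity 3 of 9 matched genes were tested and all 3 were called lower, among them ci, the transcription factor of Hedgehog signalling, with 0.775, 1.67 and 1.72 RPKM in non-stop, against 69.9, 66.2 and 33.1 RPKM in OregonR.

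Most tested genes of the maternal supply were higher in non-stop. Of 89 tested genes of the maternal supply lists (axis determinants, germ plasm, piRNA pathway, RNA clearance, egg activation, and RNAi and microRNA machinery; 94 matched) 60 were called higher and 17 lower. At least 2-fold gains were called for 39 and at least 2-fold losses for 0, beside 21.4% and 12.4% over all tested genes. Among 15 genes whose RNAs are known to be cleared from the embryo, 12 were called higher (10 at least 2-fold) and 1 lower, and 2 were not called. The mean level of these 15 was 5.32 ± 0.08 in non-stop and 3.89 ± 0.41 in OregonR on the log2(RPKM + 1) scale (SD, n = 3 each). The OregonR mean ranged over its libraries between 3.57 and 4.35, with the highest value in replicate 3, while the non-stop libraries lay between 5.23 and 5.37. The OregonR mean of the early zygotic list was also nearest to non-stop in replicate 3 (6.55), and the part of this library in the comparison was not tested, but 6396 of the 7280 genes were called without it. Both stage marker lists thus differed between the genotypes, and their part in the other results was not tested.

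The largest gain of a determinant was that of osk, which assembles the germ plasm at the posterior pole. It had 69.1, 62.8 and 48.3 RPKM in non-stop, against 1.34, 1.78 and 4.11 RPKM in OregonR (log2 fold change 4.23, SE 0.29, adjusted p = 1.43e-05). The RNA-binding protein gene smg, a main factor of maternal RNA clearance, had 419, 388 and 399 RPKM in non-stop, against 57.5, 73.2 and 128 RPKM in OregonR. Both RNAs were thus several fold above OregonR in every non-stop library. The anterior determinant bcd had 55.1, 52.1 and 51.4 RPKM in non-stop, against 8.27, 10.9 and 18.9 RPKM in OregonR, and swa, which localizes bcd RNA in the egg, had 123.0, 119 and 108 RPKM in non-stop, against 7.56, 9.804 and 22.2 RPKM in OregonR. The posterior determinant nanos changed little, with 30.5, 33.1 and 30.9 RPKM in non-stop and 23.3, 24.1 and 29.8 RPKM in OregonR (log2 fold change 0.29, SE 0.10, adjusted p = 0.0290). For the meiotic phosphatase gene twe the log2 fold change was 0.13 (adjusted p = 0.471) and for plu, a subunit of the PNG kinase, it was 0.17 (adjusted p = 0.241). The single loss of the cleared list was trbl, whose product drives String to degradation, with 6.18, 7.67 and 6.67 RPKM in non-stop, against 86.4, 92.2 and 74.5 RPKM in OregonR.

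**Figure D3:**
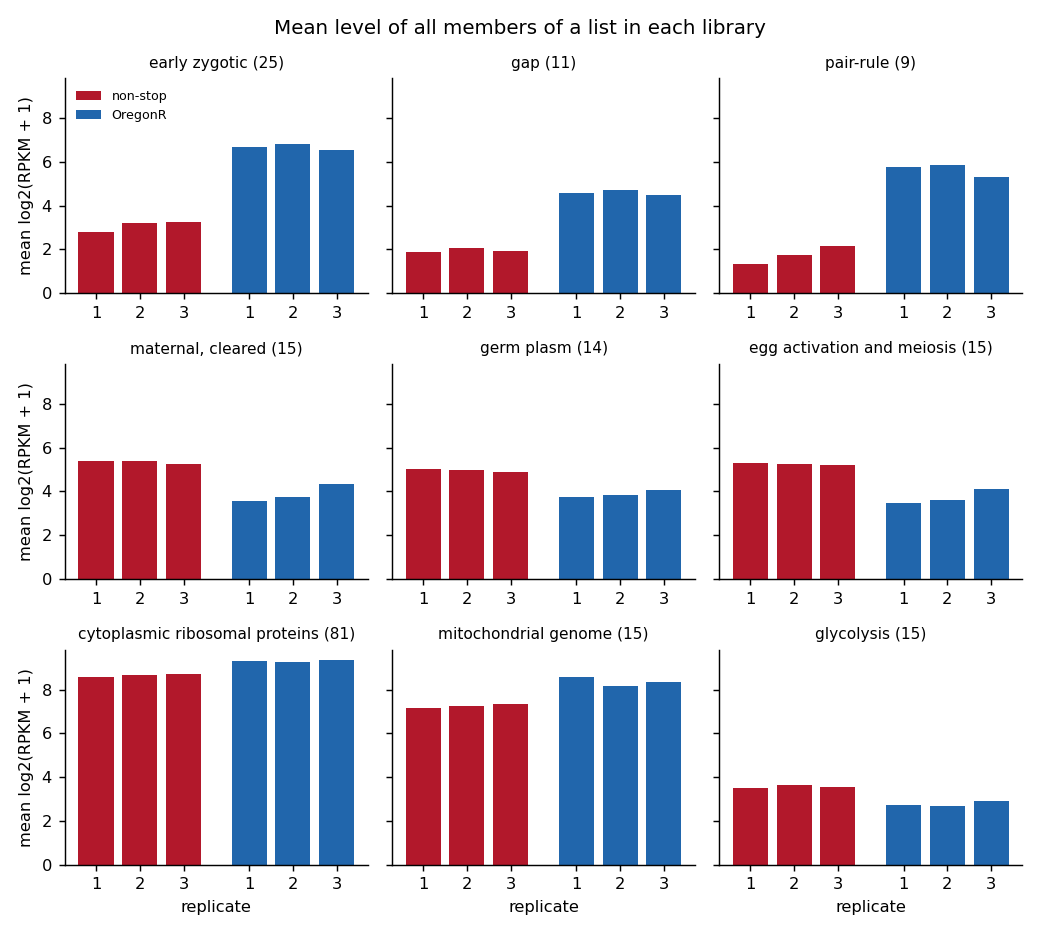
Mean of log2(RPKM + 1) over all matched members of 9 gene lists (number in brackets, tested or not) in each of the 3 non-stop and 3 OregonR libraries. The early zygotic mean lies between 2.81 and 3.24 in non-stop and between 6.55 and 6.81 in OregonR, and the mean of cleared maternal genes between 5.23 and 5.37 in non-stop and between 3.57 and 4.35 in OregonR.

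In the germ plasm list 11 of 14 genes were called higher, 8 of them at least 2-fold. Besides osk these were led by gcl, a germ cell determinant, with 59.3, 53.6 and 50.7 RPKM in non-stop and 8.303, 10.02 and 18.7 RPKM in OregonR, and by the translational repressor cup, with 58.5, 55.3 and 52.3 RPKM in non-stop and 11.7, 13.9 and 19.4 RPKM in OregonR. In the piRNA pathway 11 of 19 tested genes (57.9%) were called higher and 5 (26.3%) lower, beside 47.7% and 35.1% of all tested genes, and all 8 changes of at least 2-fold were gains. The helicase gene armi had 17.3, 14.6 and 14.8 RPKM in non-stop, against 1.69, 1.69 and 3.19 RPKM in OregonR, and krimp had 38.6, 38.6 and 37.4 RPKM in non-stop, against 5.23, 6.64 and 12.2 RPKM in OregonR. The nuclease gene zuc had the largest loss (-0.93), and the Argonaute gene aub fell by 0.50 on the log2 scale.

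Of the egg activation genes 11 of 15 were called higher, 9 at least 2-fold. Pp2B-14D, a catalytic subunit of the phosphatase calcineurin, had 47.3, 44.2 and 46.3 RPKM in non-stop, against 0.861, 1.003 and 2.45 RPKM in OregonR, a log2 fold change of 4.32 (SE 0.23, adjusted p = 5.57e-06). The PNG kinase subunit gnu had 122, 109 and 88.4 RPKM in non-stop, against 7.17, 10.7 and 24.98 RPKM in OregonR, and alphaTub67C, the alpha-tubulin of the egg, had 21.8, 22.6 and 19.3 RPKM in non-stop, against 1.98, 1.71 and 3.49 RPKM in OregonR. For gnu OregonR replicate 3 lay well above the other OregonR libraries, and all 3 stayed below non-stop. Of the 21 tested genes of RNA clearance and deadenylation 15 were called higher and 2 lower. BicC, which recruits the deadenylase to its RNA targets, had 26.7, 25.1 and 18.3 RPKM in non-stop, against 0.396, 0.383 and 0.697 RPKM in OregonR (log2 fold change 4.02). The subunits of the CCR4-NOT and PAN deadenylases themselves moved less, between -0.34 for PAN3 and 1.03 for Not3.

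Some of the largest gains were those of genes outside the patterning and maternal lists. The gene yl, the yolk protein receptor of the oocyte, had 39.5, 37.5 and 33.3 RPKM in non-stop, against 0.414, 0.419 and 1.16 RPKM in OregonR. The germline thioredoxin gene dhd had 243, 274 and 255 RPKM in non-stop, against 12.9, 11.4 and 19.98 RPKM in OregonR. The aldo-keto reductase gene Akr1B had 63.5, 66.9 and 62.5 RPKM in non-stop, against 1.03, 1.22 and 3.23 RPKM in OregonR. On the log2(RPKM + 1) scale this was the largest gain of a gene that is not named by a number (4.61). That scale understates changes of genes with low values, among them yl (4.53). Adh and Adhr rose with identical values in all 6 libraries, so that the 2 cannot be told apart. On the same log2(RPKM + 1) scale the largest losses outside the lists were those of link (6.801, 25.8 and 35.9 RPKM in non-stop, against 995, 1051 and 659 in OregonR), of the adhesion molecule gene Ama (0.265, 3.39 and 6.28 RPKM in non-stop, against 120.3, 106 and 72.2 in OregonR) and of Atx-1, the fly Ataxin-1 gene (0.390, 0.972 and 2.83 RPKM in non-stop, against 66.3, 68.2 and 44.3 in OregonR). In link and Ama non-stop replicate 1 lay several fold under the other non-stop libraries.

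Markers of other cell types were examined in the same libraries. Of 20 eggshell and yolk genes, most of which follicle cells transcribe at high levels, only yl passed the filter, the receptor gene of the oocyte, which the germ line transcribes. The other 19 had at most 0.786 RPKM in non-stop, against 0.402 in OregonR (both Yp3), and Vm32E, Cp16, Cp19, Cp36 and Cp38 were at 0 in all 6 libraries. Of 19 matched markers of the later embryo 6 passed the filter, of which 3 were called lower, 1 was called higher and 2 were not called. The one called higher was kune, a claudin gene of septate junctions, with 54.7, 58.4 and 58.5 RPKM in non-stop, against 23.7, 24.4 and 25.8 RPKM in OregonR. The neuronal gene elav, the largest loss, had 0.0160, 0.172 and 0.203 RPKM in non-stop, against 5.91, 6.04 and 3.399 RPKM in OregonR, while the muscle gene Mhc had at most 0.00116 RPKM in non-stop and 0.00852 RPKM in OregonR. Of 123 genes for cuticle proteins 2 passed the filter, and of 22 Osiris genes 0 did.

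Of 5 genes that signal the number of X chromosomes or set the sex 4 were called lower and 1, sc, was not called, with 13.1, 10.4 and 15.4 RPKM in non-stop and 13.5, 16.2 and 30.6 RPKM in OregonR (log2 fold change -0.53, adjusted p = 0.130). Sxl, the switch gene of female development, had 1.94, 3.94 and 3.56 RPKM in non-stop, against 41.5, 39.6 and 32.8 RPKM in OregonR. The X-linked signal genes run (2.46, 3.23 and 4.705 RPKM in non-stop, against 54.1, 53.2 and 42.8 in OregonR) and upd1 (2.45, 3.598 and 2.68 RPKM in non-stop, against 32.1, 36.99 and 35.4 in OregonR) fell by 3.54 and 3.21 on the log2 scale. Of the dosage compensation machinery, msl-2, which was picked after its values were seen, had 0.874, 1.47 and 1.27 RPKM in non-stop, against 40.99, 41.97 and 31.3 RPKM in OregonR. The noncoding roX1 RNA of the same complex had 6.74, 15.1 and 15.97 RPKM in non-stop, against 207, 190.1 and 172 RPKM in OregonR, and it overlaps ec.

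Genes on the X chromosome were higher relative to the autosome arms. Of 1179 tested X-linked genes 56.7% were called higher and 27.8% lower, and on the autosome arms 45.7% of 5686 were called higher and 36.5% lower. The median log2 fold change was 0.40 on X, and between 0.12 and 0.15 on each of 2L, 2R, 3L and 3R. At least 2-fold losses made up 6.96% of the X-linked genes and 13.5% of the autosomal genes. Among protein-coding genes that overlap no other gene, the medians were 0.42 on X (666 genes) and 0.07 to 0.20 on the 4 autosome arms. The small chromosome 4 had a median of 0.44 over 59 genes.

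Length and structure of the genes also went with the change. The gene length behind the RPKM, mostly the genomic span with introns, was recovered from the values. In genes under 1 kb 33.6% were called higher and 47.1% lower, and in genes of 5 to 10 kb 57.2% were called higher and 27.4% lower. The median log2 fold change was -0.18 under 1 kb, 0.02 from 1 to 2 kb, 0.28 from 2 to 5 kb and 0.42 to 0.45 from 5 to 50 kb. Between X and the autosome arms the medians were alike under 1 kb (-0.17 on X and -0.16 on the autosome arms) and apart from 2 to 5 kb (0.53 on X and 0.25 on the autosome arms). Over 50 kb the median was lower on X, 0.03 over 11 genes, against 0.34 over 62 genes on the autosome arms. Among protein-coding genes, 16.3% of the 729 with a single exon were called and at least 2-fold higher and 18.1% at least 2-fold lower, against 22.2% and 10.4% of the 5913 with several exons. Calls also went with the level. Of 582 genes with a mean of at least 100 RPKM over the 6 libraries 18.9% were called higher and 70.1% lower.

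**Figure D4:**
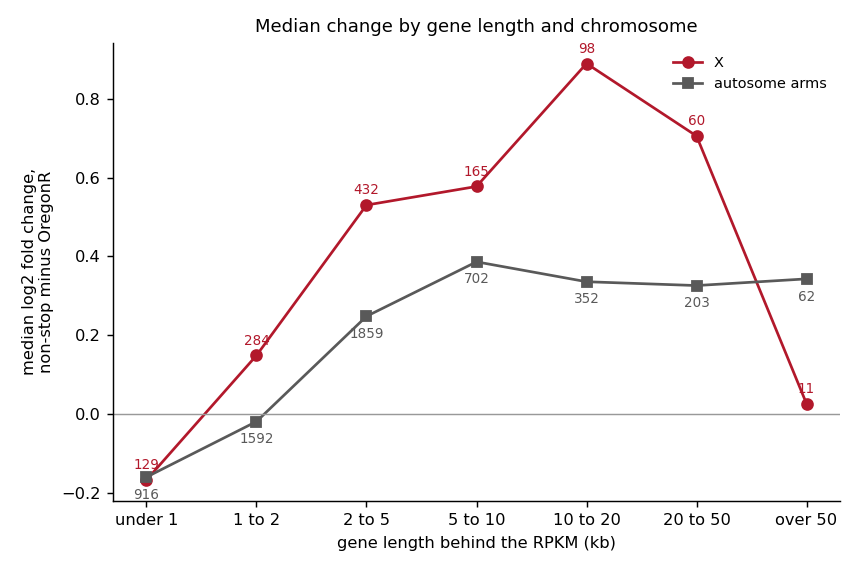
Median log2 fold change, non-stop minus OregonR, of tested genes by gene length, for the X chromosome (circles) and the autosome arms 2L, 2R, 3L and 3R (squares), with the number of genes at each point. The medians lie near -0.16 for genes under 1 kb on both and reach 0.89 on X and 0.39 on the autosome arms, and over 50 kb, with 11 genes on X, they are 0.03 on X and 0.34 on the autosome arms.

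Cell cycle genes moved both ways. Of 35 cyclins, kinases and checkpoint genes 20 (57.1%) were called higher (11 at least 2-fold) and 8 (22.9%) lower (2 at least 2-fold), beside 47.7% and 35.1% of all tested genes. The Cdc25 phosphatase gene stg, which drives the mitoses after cycle 13, had 70.9, 69.7 and 65.6 RPKM in non-stop, against 12.9, 13.7 and 22.8 RPKM in OregonR. The kinase gene gwl (Greatwall) had 126, 122 and 116 RPKM in non-stop, against 19.6, 21.03 and 22.7 RPKM in OregonR (log2 fold change 2.47), and dap, an inhibitor of Cdk2, had 25.2, 22.3 and 18.5 RPKM in non-stop, against 3.37, 2.81 and 3.83 RPKM in OregonR. The inhibitor genes trbl, of the same list, and Z600 fell, as given above, and the mitotic cyclin genes did not move together: CycB rose by 1.74 and CycB3 fell by 1.18 on the log2 scale. Of 33 replication genes 15 (45.5%) were called higher and 10 (30.3%) lower, near the 47.7% and 35.1% of all tested genes. Their median of 0.20 was -0.001 with median-of-ratios scaling and -0.08 with centring by length. The nucleotide supply was split, with RnrL, the large subunit of ribonucleotide reductase, at 1.55 and RnrS, the small subunit, at -1.37. In the kinetochore and spindle list (median 0.16, and -0.04 with median-of-ratios scaling and -0.39 with centring by length) the centromere factor cal1 (2.09) and the microtubule depolymerase Klp10A (2.40) rose and the kinetochore gene Mis12 (-2.20) fell most.

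Chromatin genes changed in both directions. BigH1, the linker histone of the early embryo, had 129.8, 136 and 125 RPKM in non-stop, against 30.04, 34.9 and 57.5 RPKM in OregonR, while the 5 other genes of the variant list were called lower, led by His3.3A (109, 119 and 127 RPKM in non-stop, against 286, 323 and 257 in OregonR). Of 19 Polycomb group genes 9 were called lower and 6 higher. The genes ph-p (-1.72), Su(z)12 (-1.64), Pc (-1.15) and E(z) fell at least 2-fold, and esc (1.51) and phol rose. Thus subunits of one complex, such as E(z), Su(z)12 and esc of PRC2, moved in opposite directions. The 111 replicative histone genes are near-identical copies whose reads cannot be assigned to one copy. By type, the 20 His2A copies had a median log2 fold change of 1.23, the 23 His2B copies 0.65, the 23 His3 copies 0.54, the 22 His4 copies 0.15 and the 23 His1 copies -0.12. Replicative histone mRNAs have no poly(A) tail, so these libraries hold an unknown part of them. Of the genes that place ubiquitin on H2B, the reaction opposite to that of Non-stop, Bre1 (0.26) and Rtf1 (1.08) were called higher, and Ctr9 (-0.59) and atms (-0.63) were called lower.

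In the machinery of protein synthesis the ribosome and the synthetases differed. Of 77 tested genes for cytoplasmic ribosomal proteins 75 were called lower and 0 higher, with a median of -0.58 as deposited and 0.05 after quantile normalization, so their direction rests on the scaling. The 5 genes with the largest losses stood apart from the other 72. RpLP0, of the ribosomal stalk, had 47.3, 63.2 and 80.5 RPKM in non-stop, against 789, 833 and 604 RPKM in OregonR (log2 fold change -3.54, SE 0.20, adjusted p = 7.37e-06). RpS2 had 156, 191 and 228 RPKM in non-stop, against 1698, 1564 and 1577 RPKM in OregonR, and sta, which encodes the small-subunit protein SA, had 119.95, 134 and 168 RPKM in non-stop, against 1194, 1246 and 1026 RPKM in OregonR. RpS20 (-1.59) and RpL10Ab (-1.45) followed, and the other 72 lay between -0.98 and -0.10. In the mitochondrial ribosome 20 of 71 genes (28.2%) were called higher and 28 (39.4%) lower, beside 47.7% and 35.1% of all tested genes. The log2 fold changes ran between -1.79 (mRpL47) and 1.40 (mRpL12).

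**Figure D5:**
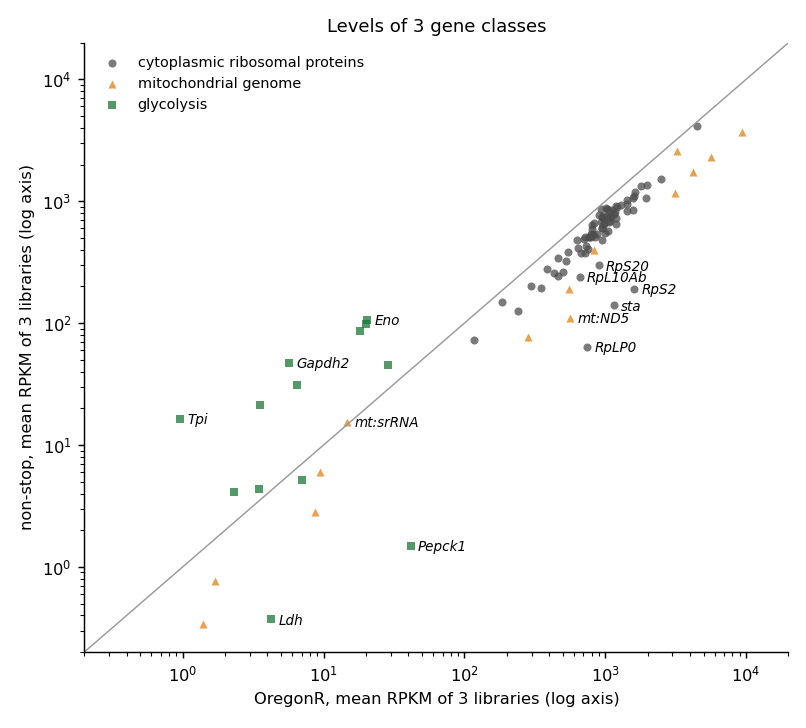
Mean RPKM over 3 non-stop libraries (vertical) against mean RPKM over 3 OregonR libraries (horizontal), both on log axes, of the tested genes for cytoplasmic ribosomal proteins (circles), of the mitochondrial genome (triangles) and of glycolysis (squares), with the line of equal levels. The ribosomal protein genes follow the line at a small distance except RpLP0, RpS2, sta, RpS20 and RpL10Ab, and most glycolytic genes lie above it.

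Of 32 tested aminoacyl-tRNA synthetase genes 22 were called higher, 11 at least 2-fold, and 4 lower, led by MetRS (4.54, 4.87 and 3.81 RPKM in non-stop, against 1.04, 0.670 and 0.729 in OregonR). Of 13 RNA polymerase II subunits 9 were called lower and 2 higher, with Polr2L (-1.10) the only one past 2-fold. Of 34 core spliceosome genes 29 were called lower and 3 higher, but only Prp39 (-1.15) fell at least 2-fold. These losses were widespread and small. In TFIID Taf13 (-1.39) and Taf10b (-1.15) fell and Taf8 (1.32) rose. In Mediator 5 of 29 genes fell at least 2-fold, led by the kinase-module subunit kto (-1.35), and MED1 (1.09) rose. The RNA polymerase III subunit Polr3A had 9.57, 8.91 and 9.19 RPKM in non-stop, against 0.521, 0.422 and 0.290 RPKM in OregonR, and the Integrator subunit IntS6 had 44.7, 40.9 and 42.3 RPKM in non-stop, against 5.004, 6.17 and 9.93 RPKM in OregonR. Both changes were larger than those of their fellow subunits, whose list median was 0.22 in RNA polymerases I and III (-0.05 after quantile normalization and -0.03 after centring by length) and 0.30 in Integrator.

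In carbohydrate metabolism most tested genes were higher. Of 13 tested genes of the glycolysis list 10 were called higher, 7 at least 2-fold, with a median of 2.19. Tpi (triosephosphate isomerase) had 15.1, 18.7 and 15.5 RPKM in non-stop, against 0.828, 0.678 and 1.37 RPKM in OregonR (log2 fold change 3.17, SE 0.16, adjusted p = 4.63e-06). Gapdh2 had 45.6, 51.02 and 44.6 RPKM in non-stop, against 5.38, 4.88 and 6.901 RPKM in OregonR, and Eno (enolase) had 112, 110.3 and 97.9 RPKM in non-stop, against 15.4, 15.5 and 30.1 RPKM in OregonR. Several enzymes of the lower pathway thus rose, with Pgk between them at only 0.26 on the log2 scale. There were 2 losses: Pepck1, the first step of gluconeogenesis, had 0.404, 1.95 and 2.14 RPKM in non-stop, against 49.1, 44.7 and 31.02 RPKM in OregonR, and Ldh (lactate dehydrogenase) had 0.386, 0.406 and 0.325 RPKM in non-stop, against 4.56, 4.57 and 3.66 RPKM in OregonR. The gluconeogenic fbp went with the gains (2.29), and Pgi was not called (-0.36, adjusted p = 0.125).

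In the citrate cycle list 11 of 15 genes were called higher, 5 at least 2-fold, and 1 lower. Idh (isocitrate dehydrogenase) had 38.8, 38.6 and 35.1 RPKM in non-stop, against 2.61, 2.81 and 5.83 RPKM in OregonR, and Mdh2 (mitochondrial malate dehydrogenase) had 15.6, 17.9 and 15.9 RPKM in non-stop, against 1.23, 1.34 and 2.24 RPKM in OregonR. Genes of respiration were more often called lower. Of 15 genes of the mitochondrial genome 14 were called lower, 10 at least 2-fold, with a median of -1.27, and mt:ND5 led with 107, 106 and 118 RPKM in non-stop, against 676, 439.8 and 581 RPKM in OregonR. Of the nuclear genes, 20 of 32 for complex I were called lower and 5 higher, and 12 of 22 for complexes II to IV were called lower and 5 higher. In ATP synthase blw, the alpha subunit, (1.33) and ATPsynC, the ring subunit, (1.58) rose, and the list median of -0.04 was 0.31 after quantile normalization.

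Lipid genes were mostly higher, 10 of 12 tested (5 at least 2-fold). The lipid droplet proteins Lsd-2 (158, 133 and 117 RPKM in non-stop, against 6.89, 9.39 and 26.8 in OregonR) and Jabba, which holds histones on the droplets of the egg (48.8, 46.9 and 37.8 RPKM in non-stop, against 3.503, 3.67 and 9.56 in OregonR), led them, with SREBP, the transcription factor of lipid synthesis (1.98). Genes of detoxification moved both ways. GstD1 had 31.5, 37.4 and 31.4 RPKM in non-stop, against 0.909, 1.01 and 1.93 RPKM in OregonR, while 11 of 21 tested glutathione S-transferase genes were called lower and 8 higher. Of 84 cytochrome P450 genes 14 passed the filter, with Cyp6a19 (2.75) and Cyp4p2 (2.09) highest and Cyp310a1 (0.150, 0.869 and 0.933 RPKM in non-stop, against 62.3, 52.2 and 38.9 in OregonR) lowest.

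Genes for the folding and degradation of proteins moved both ways. Of the chaperonin CCT, which folds actin and tubulin, 6 of 7 subunits were called higher, led by CCT6 (1.86) and CCT7 (1.79), and CCT1 was not called (-0.04, adjusted p = 0.785). The small heat shock gene Hsp26 had 312, 284 and 231 RPKM in non-stop, against 23.3, 27.6 and 32.8 RPKM in OregonR, and Hsp27 had 409, 382 and 331 RPKM in non-stop, against 38.4, 51.3 and 113 RPKM in OregonR. Their neighbours in the same gene cluster fell, Hsp22 with 4.32, 5.72 and 3.74 RPKM in non-stop, against 24.9, 23.5 and 30.6 RPKM in OregonR, and Hsp23 with 13.9, 20.2 and 20.6 RPKM in non-stop, against 55.1, 53.02 and 49.1 RPKM in OregonR. Hsp83, the fly Hsp90, rose by 1.73. In the proteasome the 2 particles differed in direction on the deposited scale, a split that was picked after the values were seen. Of 15 tested core particle genes 10 were called lower and 3 higher (median -0.37), and of 18 regulatory particle genes 13 were called higher and 3 lower (median 0.69), with Rpn8 (1.62) and Rpt1 (1.20) at the top.

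The counts for the family of ubiquitin proteases lay near those of all genes. Of its 24 tested genes 13 (54.2%) were called higher (7 at least 2-fold), beside 47.7% of all tested genes, and 8 (33.3%) lower, beside 35.1% (4 at least 2-fold, with not among them), and the median of 0.26 was -0.16 after centring by length. Usp5, which takes apart free ubiquitin chains, had 66.9, 67.1 and 66.4 RPKM in non-stop, against 2.58, 2.78 and 3.52 RPKM in OregonR (log2 fold change 4.10, SE 0.10, adjusted p = 9.32e-07). Uch, a ubiquitin C-terminal hydrolase, had 35.4, 32.1 and 26.2 RPKM in non-stop, against 2.98, 3.23 and 3.94 RPKM in OregonR, and faf, a maternal protease of the germ plasm and eye, had 83.2, 71.2 and 75.4 RPKM in non-stop, against 11.4, 13.6 and 19.1 RPKM in OregonR. In these 3 genes the lowest non-stop value was several fold above the highest OregonR value. The losses were those of ec (-2.15), Usp15-31 (-1.54) and Uch-L5 (-1.27), of which ec overlaps roX1.

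In membrane traffic 11 of 15 COPI and COPII coat genes were called higher, 8 of them at least 2-fold, led by the COPII genes Sec24CD (1.75) and Sec16 (1.73). Of 14 tested vacuolar ATPase genes (28 matched) 12 were called higher. Vha55, the B subunit of the proton pump, had 77.1, 78.6 and 76.5 RPKM in non-stop, against 7.04, 7.57 and 17.3 RPKM in OregonR, and Vha68-2, the A subunit, had 90.9, 86.2 and 78.3 RPKM in non-stop, against 9.37, 9.52 and 15.7 RPKM in OregonR. VhaM9.7-a (-1.62) was the exception.

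Of the signalling lists, 8 of 11 tested Notch genes were called lower and 2 higher, 8 of 16 EGF receptor genes lower and 6 higher, 8 of 16 Wnt genes lower and 7 higher, and 2 of 6 JAK/STAT genes lower and 2 higher. In EGF receptor signalling the ligand spi (2.15, 2.27 and 2.61 RPKM in non-stop, against 17.2, 18.5 and 10.3 in OregonR), the receptor Egfr (0.679, 0.739 and 0.573 RPKM in non-stop, against 7.18, 7.38 and 6.13 in OregonR) and the protease rho, which releases the ligand, (0.346, 0.623 and 0.716 RPKM in non-stop, against 15.6, 15.2 and 10.98 in OregonR) fell. The oocyte ligand grk rose, with 13.003, 12.2 and 12.8 RPKM in non-stop, against 1.47, 1.95 and 3.21 RPKM in OregonR. In JAK/STAT signalling the ligand upd1 (-3.21) and the feedback target Socs36E (-3.17) fell, and the transcription factor Stat92E was not called (0.13, adjusted p = 0.281). In the Wnt list wntD (-3.82), nkd (-2.31) and Notum (-2.29) fell and the receptor gene fz4 (2.14) rose. In the Notch list the genes called lower included mib1 (-2.38) and neur (-1.47), the ubiquitin ligases of Notch ligands, and the antagonist H rose (1.04).

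In the lists of epithelial architecture more genes were called lower than higher. Of 12 polarity genes 8 were called lower, with sdt (0.260, 0.432 and 0.461 RPKM in non-stop, against 5.39, 5.46 and 3.36 in OregonR), crb (-1.40) and scrib (-1.09) past 2-fold, and the kinase par-1 rose (1.43). The E-cadherin gene shg had 50.1, 42.8 and 46.99 RPKM in non-stop, against 114.6, 122 and 108 RPKM in OregonR (log2 fold change -1.28, SE 0.07, adjusted p = 7.16e-06), and Vinc (vinculin) rose (1.94). On the log2(RPKM + 1) scale, which understates changes of genes with low values, mira had the largest loss of a list member not named by a number (-5.36). The gene mira, whose product carries fate determinants in dividing neuroblasts, had 1.07, 4.13 and 6.33 RPKM in non-stop, against 201, 180.4 and 145 RPKM in OregonR. Of 23 actin and myosin genes 13 were called lower and 7 higher, with a median of -0.16 that was 0.01 after quantile normalization, and with the actin regulators SCAR (2.00), Moe (1.79) and Arp2 (1.66) at the top.

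Small noncoding RNA genes gave values that have to be read with their surroundings, since most lie inside other genes. Of 289 matched snoRNA and snRNA genes 110 passed the filter. Among these were 92 snoRNA and scaRNA genes, of which 75 were called and at least 2-fold lower and 84 overlap another gene. Members such as snoRNA:Me28S-G2703c (0, 0.602 and 0.601 RPKM in non-stop, against 21.8, 13.6 and 14.5 in OregonR) passed the filter only through OregonR, so that the count describes the genes that passed. With a mean of at least 5 RPKM as the filter the median log2 fold change of the snoRNA and snRNA list was 0.83 over 17 genes, where it was -1.35 over the 110. The list pools the 92 snoRNA and scaRNA genes (median -1.49) with 18 snRNA genes (median 0.77). How many of each were among the 17 was not counted, so the 0.83 describes a mix and not a reversal of the snoRNA losses. For 83 of the snoRNA and scaRNA genes an overlapping gene was tested too, and its change had the same sign in 71 and the opposite sign in 12. The host gene Uhg5 had 1.73, 1.53 and 2.01 RPKM in non-stop, against 12.1, 9.49 and 8.38 RPKM in OregonR, and the snoRNAs inside it, such as snoRNA:Me28S-G2703c (-3.66), fell as well. In contrast Nop60B rose (1.05) while snoRNA:Or-CD9a (-3.10) and snoRNA:Or-CD9b (-2.73) inside it fell, and kra rose (0.36) while snoRNA:Psi28S-3385b (-2.14) fell. Of 233 matched microRNA genes 26 were tested, and 23 of these overlap another gene. Of these mir-4971 (-4.72) lies in msl-2, mir-4956 (-3.41) in Sxl and mir-4917 (3.53) in yl, and their values went in the direction of those genes, with reads that cannot be told apart where the use of strand in counting is not given. A counter-example was mir-4949 (-1.03), which lies in ATPsynC (1.58). The spliceosomal U1 genes were all called higher, 5 of 5, with snRNA:U1:21D at 18.1, 21.7 and 21.2 RPKM in non-stop, against 1.56, 2.899 and 3.35 RPKM in OregonR. The U5 genes were called higher too, 3 of 3 with a median of 1.43, and none of 5 U2 genes was called. Copies of a small nuclear RNA are near-identical and their reads may be shared. The libraries were selected for poly(A) RNA, so the part of these small RNAs that they hold is unknown. Among long noncoding RNAs lncRNA:CR43887 fell most, with 19.3, 39.99 and 40.8 RPKM in non-stop, against 982, 969.6 and 718 RPKM in OregonR.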

How the data were processed

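RNA-seq was analysed from a table of RPKM for 15682 genes that the authors deposited, with 1 column for each of 9 libraries, 3 each of non-stop, OregonR and ataxin-7 embryos, and the non-stop and OregonR columns were compared. The deposited RPKM are reads per kilobase scaled to the library size. The submitters' processing notes name CASAVA 1.8.2, TopHat2 2.0.13, edgeR 3.14.0 and the genome build dm3 without their roles, and the counting tool, its use of strand and the annotation are not given in the sources used here. Whole reads and a whole gene length were recovered from the RPKM for 99.9855% of 13809 genes (lengths within 0.001 of a whole number). For 83.5% of 10828 genes with introns the length lay within 5% of the genomic span, so that RPKM of genes with long introns are low.

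Genes with at least 1 RPKM in at least 3 of 6 libraries were tested on log2(RPKM + 1) with limma 3.58.1 in R 4.3.3, with moderated variances and an intensity trend, and p-values were adjusted over all 7280 tested genes (Benjamini-Hochberg). Fold changes on this scale understate the change of genes with low values. No paper or label says that the libraries came from separate collections, so p-values measure the spread between these libraries, which may be technical. Intervals and limits from read numbers cover counting error only. On simulated data the test found 83.0% of 194 genes changed 1.5-fold and 100% of those changed 2-fold or 4-fold, with 4.73% (1.5-fold), 5.69% (2-fold) and 9.17% (4-fold) of the calls false. The simulation changed few genes (194 of 7129 tested at 1.5-fold), up and down alike. It gave all genes the same dispersion and held no difference between experiments. In the real comparison most genes were called, so these rates are not the error rates of its calls.

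Gene symbols, exons, chromosomes and overlaps came from Ensembl release 115 by gene identifier (15002 matched). That annotation is of a later genome build than dm3, which the processing notes name. Genes were matched by identifier and not by position, but the recovered lengths were scaled to and compared with spans of the later build. Of 6949 tested genes with a known position 3303 overlap another gene, among them many of the named genes. The 85 gene lists, the tests and the genes to be named were chosen with earlier results of these data known. Named were the genes of the deubiquitinase module, in each list with at least 5 tested members the genes with the largest changes of at least 2-fold in each direction whose groups did not overlap and the next 2 on the side with more such genes, and the 12 largest changes in each direction among genes with a name. Others, for example bcd, nanos, stg, Hsp27, msl-2, RpS20 and Ldh, were chosen after their values were seen. Alternatives were the pseudocount, the filter, 3 scalings, the replicate number as a block, voom on the recovered reads, no trend, all 9 libraries in the fit, each library left out and, added after the data were seen, genes without overlap.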

Additional observations from a re-analysis of the deposited data

How the results depend on the processing

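The count of called genes (6024 of 7280) was 5168 to 6020 with another pseudocount (0.1 or 0.5), another scaling, the replicate block, voom on the recovered reads, no trend or all 9 libraries in the fit, 4502 of 5462 with a mean RPKM of at least 5, 8140 of 13181 without a filter, and 2996 of 3646 without the genes that overlap another, where fewer genes were tested. Leaving out 1 library gave 5617 (without non-stop replicate 2) to 6396 (without OregonR replicate 3). With the replicate number as a block 5895 genes were called. Deviations of same-numbered libraries from their genotype means correlated at -0.24, 0.11 and -0.11, and those of differently numbered libraries at -0.19 to 0.23. The deviations sum to 0 within each genotype, so these values cannot decide whether same-numbered libraries share more than a number. Of the values for named genes under the alternatives 3939 kept direction and side of the threshold, 8 lost the call (mRpL46, eIF2Bdelta, MetRS, Cdc45, Hsc70-5, Cyp6a19 and Gapdh2 with all 9 libraries in the fit, and e(y)2 centred by length), 3 gained one (Atxn7 under each scaling) and 1 reversed (Sgf11, -0.15 after median-of-ratios scaling, adjusted p = 0.0462 in limma). Of the list medians 847 moved by less than the spread between replicates, 427 moved by more without a change of sign and 40 reversed.

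After quantile normalization the median log2 fold change was 0.0537 for cytoplasmic ribosomal proteins, 0.0895 for translation factors, 0.0742 for ribosome biogenesis, 0.31 for ATP synthase, 0.0115 for actin and myosin, 0.0788 for tubulins, -0.0526 for RNA polymerases I and III, -0.0478 for BMP receptors and Smads and -0.073 for Hippo. After median-of-ratios scaling it was -0.001 for DNA replication, -0.0422 for kinetochore and spindle, -0.16 for the nuclear pore, -0.0609 for the proteasome and -0.0072 for Hippo. Centred within length bins it was -0.0837 for DNA replication, -0.39 for kinetochore and spindle, -0.35 for cohesin and condensin, -0.37 for H2B ubiquitination, -0.0268 for RNA polymerases I and III, -0.39 for the nuclear pore, -0.22 for the proteasome, -0.16 for ubiquitin-specific proteases, -0.0016 for cytochrome P450, -0.23 for BMP receptors and Smads, -0.24 for Hippo and -0.0384 for genes named by number. Without a filter it was -0.0163 for cytochrome P450, -0.0109 for Hippo and -0.0054 for genes named by number, and with a mean RPKM of at least 5 it was -0.16 for cytochrome P450, 0.12 for chemoreceptors, 0.83 for snoRNA and snRNA genes and 0.43 for antisense RNA genes. Without genes that overlap another it was 0.35 for RNAi and microRNA machinery, -0.14 for kinetochore and spindle, 0.0413 for mitochondrial ribosomal proteins, -0.0826 for the proteasome, -0.49 for cytochrome P450, 0.48 for snoRNA and snRNA genes and 0.63 for antisense RNA genes. The cause was not tested. Depth limited low genes more in non-stop, where 3 reads per kilobase were worth up to 0.0767 RPKM, against up to 0.0402 RPKM in OregonR.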

Other observations

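A few genes were high in one genotype and under 1 RPKM in every library of the other. In non-stop 6 genes had a mean of at least 10 RPKM and stayed under 1 RPKM in all OregonR libraries: BicC, CG15047, CG42598, CG6927, the glycerol kinase gene Gk2 and mir-4917, which lies in yl. Gk2 had 14.1, 14.3 and 15.2 RPKM in non-stop, against 0.472, 0.414 and 0.476 RPKM in OregonR, and CG15047 had 26.7, 28.7 and 32.3 RPKM in non-stop, against 0.132, 0.0798 and 0.0461 RPKM in OregonR. In OregonR 41 genes had a mean of at least 10 RPKM and stayed under 1 RPKM in all non-stop libraries. Among them were the hindgut and gut transcription factor genes byn (0.0858, 0.174 and 0.335 RPKM in non-stop, against 11.2, 11.2 and 7.96 in OregonR) and fkh (0.127, 0.844 and 0.994 RPKM in non-stop, against 31.5, 31.9 and 20.6 in OregonR), the head gap gene btd, the tracheal and salivary gland regulator rib, the axon guidance genes sli and comm2 and the ecdysone synthesis gene dib. Both genes of the pair Cyp12d1-d and Cyp12d1-p, which are near-identical copies whose reads may be shared, were in this group. So were CG30080 and CG42662, with identical values in all 6 libraries, and CG13928 and GC, which overlap. The count of 41 can thus hold the same reads more than once. All these genes were chosen after their values were seen. Of the 1555 genes that were at least 2-fold higher 802 (51.6%) lay above all 6 libraries of experiment 1013, OregonR and ataxin-7, and of the 906 that were at least 2-fold lower 613 (67.7%) lay below all 6 with no overlap. These genes were chosen by their difference from OregonR, so both shares rest mostly on the ataxin-7 libraries. Of those, ataxin-7 replicate 1 is known to spread widely, and its part in the shares was not tested.

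Some small classes showed further directions. All 6 tested UDP-glycosyltransferase genes of 35 were called higher, led by Ugt302C1 (2.45). Of 4 tested gap junction (innexin) genes Inx2 (30.4, 32.8 and 34.4 RPKM in non-stop, against 199.9, 188 and 152 in OregonR), ogre (-1.49) and Inx7 (-0.58) fell, and zpg, the innexin of the germ line, rose (1.17). Both Dicer genes rose, Dcr-1 by 1.17 and Dcr-2 by 1.42, while the Argonaute genes AGO1 (-0.53) and AGO2 (-0.60) fell. The tubulins of the egg, alphaTub67C (2.74) and gammaTub37C (1.72), rose and alphaTub84B fell (-0.66). The receptor gene Tollo had 0.533, 0.819 and 1.25 RPKM in non-stop, against 24.2, 23.4 and 14.3 RPKM in OregonR, and MtnA, a metallothionein gene, had 10.3, 12.2 and 13.5 RPKM in non-stop, against 0.570, 0.554 and 1.17 RPKM in OregonR. The near-identical copies of the heat-inducible Hsp70 gene were not called, with Hsp70Bb at 8.34, 14.2 and 8.12 RPKM in non-stop and 4.15, 9.12 and 1.36 RPKM in OregonR (log2 fold change 1.13, adjusted p = 0.0710 in limma).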
